A study of Mus musculus with 5 samples.

Results

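The gene-desert regions were stretches of mouse chromatin immunoprecipitated with NEUROD2 that lay in no annotated transcript and far from every annotated gene start. Peaks of 3 NEUROD2 antibodies that shared at least 1 bp were merged, and a merged region was kept where peaks of at least 2 antibodies met on chromosomes 1 to 19, X or Y. A region counted as gene-desert where its midpoint fell outside the longest transcript of every gene, of any gene type, and more than 50 kb from the closest transcription start site (TSS) of those transcripts (mm10, GENCODE M21). Of 32261 regions, 3222 met this rule, or 9.99% (Wilson 95% interval 9.66 to 10.3). The closest member above the threshold lay 50044 bp from a TSS, with scores of 76.3 for ab1 and 60.9 for ab2, and the last intergenic region inside it lay at 49994 bp, with 382 and 188.

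NEUROD2 ChIP-Seq was performed on cerebral cortex of E14.5 embryos of the BALB/c strain, with chromatin pooled from several litters. There were 3 NEUROD2 libraries, called ab1 (a mouse antibody), ab2 and ab3 (rabbit antibodies), each from a different antibody and each without a replicate. Antibodies against GFP, a protein these animals do not carry, gave the control libraries for peak calling. A single rabbit GFP library served ab2 and ab3, so those peak lists are not independent of each other, and a mouse GFP library served ab1.

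NEUROD2 is a basic helix-loop-helix (bHLH) transcription factor of newly born excitatory neurons of the cortex. Proteins of this family bind DNA as dimers at the E-box, a short palindrome-like site, and the central bases of the site differ between family members. Gene deserts are long stretches without genes, and many that flank developmental genes hold enhancers, which act on promoters over long distances through chromatin looping. The gene closest to such an element need not be the gene it acts on, so the gene names used here mark positions only.

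Sequences are printed first to show what the strongest and the most remote members look like. Each is the central 200 bp of a member, on the plus strand of GRCm38 (mm10), in lower case, with every match to the extended E-box in capitals. The extended E-box is CA, then G or T, then A or C, then TG, then G or T, sought on both strands, so that matches on both strands over the same core make a capital run of 8 letters. The first 6 are the members with peaks of all 3 antibodies and an extended E-box that had the highest ab3 scores, with 1 member per gene-free interval. They lay closest, among protein-coding genes, to Triqk (chr4:13147190-13147389), Klhl29 (chr12:6638608-6638807), Gm6657 (chr12:78001873-78002072), Kcnab2 (chr4:152572422-152572621), Smyd2 (chr1:189991211-189991410) and Cmpk2 (chr12:26781608-26781807).
Triqk desert: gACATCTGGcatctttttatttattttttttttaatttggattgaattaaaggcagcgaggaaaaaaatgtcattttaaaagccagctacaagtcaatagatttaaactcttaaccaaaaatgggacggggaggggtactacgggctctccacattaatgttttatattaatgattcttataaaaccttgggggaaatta
Klhl29 desert: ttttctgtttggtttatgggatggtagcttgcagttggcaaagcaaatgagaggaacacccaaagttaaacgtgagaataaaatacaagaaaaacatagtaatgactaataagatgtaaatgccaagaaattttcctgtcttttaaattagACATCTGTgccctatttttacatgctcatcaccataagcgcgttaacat
Gm6657 desert: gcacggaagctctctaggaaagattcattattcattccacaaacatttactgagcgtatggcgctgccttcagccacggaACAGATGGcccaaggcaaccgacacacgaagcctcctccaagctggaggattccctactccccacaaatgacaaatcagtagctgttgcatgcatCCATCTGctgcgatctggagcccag
Kcnab2 desert: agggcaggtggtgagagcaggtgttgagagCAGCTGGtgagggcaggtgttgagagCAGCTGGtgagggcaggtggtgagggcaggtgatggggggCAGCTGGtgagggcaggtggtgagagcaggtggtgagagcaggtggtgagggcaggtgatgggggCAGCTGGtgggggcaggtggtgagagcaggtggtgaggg
Smyd2 desert: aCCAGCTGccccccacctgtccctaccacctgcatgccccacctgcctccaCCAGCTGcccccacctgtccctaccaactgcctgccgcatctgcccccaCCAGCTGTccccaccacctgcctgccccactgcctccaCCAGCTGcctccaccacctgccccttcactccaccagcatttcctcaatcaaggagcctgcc
Cmpk2 desert: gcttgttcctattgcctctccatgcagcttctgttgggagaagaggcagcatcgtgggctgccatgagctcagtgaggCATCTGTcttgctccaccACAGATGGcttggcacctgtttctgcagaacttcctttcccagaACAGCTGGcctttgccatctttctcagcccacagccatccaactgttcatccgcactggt

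The members beside Triqk, Klhl29 and Gm6657 had the highest ab3 scores of all gene-desert regions, at 1783, 1400 and 1218, and each reached 3100 with both ab1 and ab2. Their central windows differed widely in base composition, with a GC content of 32.5% beside Triqk, 34.5% beside Klhl29 and 52.0% beside Gm6657. Beside Kcnab2, a potassium channel subunit gene, the window held 4 extended E-boxes, all of the CAGCTG form, inside a run of near-identical short units with a GC content of 66.0%, and the scores were 3100, 2445 and 1042. The Smyd2 window also held 4 in a repeating run (GC content 67.0%), yet neither window had a base that the assembly marks as repeat by lower case. The Cmpk2 window held 3 extended E-boxes in sequence that did not repeat in this way.

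A further 2 sequences had high scores without an E-box in the centre. They are the members with peaks of all 3 antibodies and no CANNTG in the central 200 bp that had the highest ab3 scores, closest to Cryba4 (chr5:112092579-112092778) and A230072I06Rik (chr8:12127004-12127203). The last sequence is the member with all 3 antibodies that lay farthest from any TSS, 404885 bp away, and 749694 bp downstream of the TSS of Cenpc1 (chr5:85315789-85315988).
Cryba4 desert: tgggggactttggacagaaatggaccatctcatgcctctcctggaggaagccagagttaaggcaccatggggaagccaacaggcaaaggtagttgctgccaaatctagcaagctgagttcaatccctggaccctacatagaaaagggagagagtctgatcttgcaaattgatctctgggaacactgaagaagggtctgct
A230072I06Rik desert: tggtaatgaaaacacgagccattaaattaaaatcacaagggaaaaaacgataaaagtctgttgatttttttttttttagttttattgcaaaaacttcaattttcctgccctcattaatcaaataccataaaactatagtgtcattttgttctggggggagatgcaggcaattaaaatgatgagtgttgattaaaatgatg
Cenpc1 desert: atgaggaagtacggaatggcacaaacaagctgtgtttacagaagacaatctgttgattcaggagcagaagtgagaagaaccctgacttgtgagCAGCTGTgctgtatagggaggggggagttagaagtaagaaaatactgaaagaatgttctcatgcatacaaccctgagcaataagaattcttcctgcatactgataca

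The member beside Cryba4 scored 3100 with ab1, 2972 with ab2 and 811 with ab3, and that beside A230072I06Rik scored 3100, 2154 and 521. The remote member beside Cenpc1 had lower scores of 401, 337 and 72.7, and a single extended E-box of the CAGCTG form.

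Gene deserts held fewer NEUROD2 regions per length than the rest of the genome. Positions that met the distance rule made up 430 Mb, or 16.2% of the known bases, and held 7.49 regions per Mb, against 13.1 per Mb in the other 2217 Mb. The ratio was 0.572 (exact Poisson 95% interval 0.551 to 0.593). The density was lower in deserts than elsewhere on 19 of 19 autosomes, where it ran from 5.32 to 10.8 per Mb in deserts and was at least 11.1 per Mb outside them. On chromosome X it was 2.25 per Mb in deserts and 3.33 per Mb outside them, and no gene-desert region lay on chromosome Y. These intervals cover counting error only, and since members of 1 locus share their surroundings, they are narrower than the true error.

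Density also differed between kinds of sequence. At like distances, sequence inside transcripts and also more than 50 kb from a TSS, called deep gene-body sequence here, held 14.9 regions per Mb (4077 regions in 273 Mb), and deserts held 0.502 times as many (interval 0.479 to 0.526). Nearer intergenic sequence, closer to genes than deserts are, outside transcripts and between 1 kb and 50 kb from a TSS, held 8.40 per Mb (8195 regions in 976 Mb), and the ratio to it was 0.892 (0.856 to 0.929). Lower-case, repeat-masked bases made up 41.6% of desert sequence, 28.3% of deep gene-body sequence and 44.0% of nearer intergenic sequence. The authors discarded reads that mapped to several places, and the part of repeats in these densities was not tested.

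Within the deserts, the density fell with distance. From 50 to 100 kb from the closest TSS there were 1957 members at 8.11 per Mb (exact Poisson 95% interval 7.75 to 8.47). From 100 to 200 kb there were 989 at 6.96 per Mb (6.54 to 7.41), and from 200 to 500 kb 274 at 5.96 per Mb (5.28 to 6.71). The interval of the first bin overlapped neither of the others, while those of the second and the third bin overlapped. Past 500 kb lay 2 members in 0.726 Mb, upstream of Cntnap5a (588804 bp from the closest TSS) and of Kcnd2 (555661 bp), a neuronal potassium channel gene. Both had peaks of ab1 and ab2 alone, with ab1 scores of 180 and 195, and they sat 222228 bp and 159111 bp from the next region. The other members that lay farthest out, 2 downstream of Cdh11 and a second upstream of Kcnd2, were 461112 to 478319 bp from a TSS and had ab1 scores of 125 to 157.

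**Figure D1:**
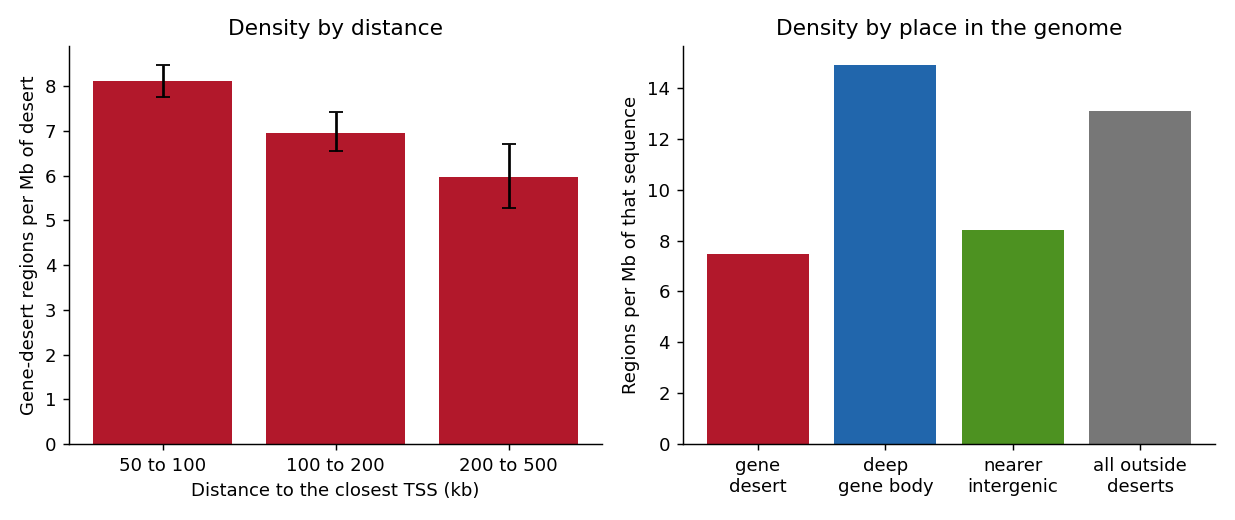
The left panel plots gene-desert regions per Mb of desert in bins of distance to the closest TSS (kb), with exact Poisson 95% intervals as error bars, and falls from 8.11 to 5.96 per Mb. The right panel plots regions per Mb in gene deserts, deep gene bodies, nearer intergenic sequence and all sequence outside deserts, where deserts are the lowest at 7.49 and deep gene bodies the highest at 14.9.

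The antibodies gave the members scores over a wide range. A score here is the MACS value of the highest peak of that antibody in a region, 10 times the negative log10 of the peak's p-value, and the lists start at 50. The lower quartile, the median and the upper quartile of the ab1 score were 141, 274 and 615 over the members. For ab2 they were 80.8, 142 and 316, and for ab3, which had a peak in 798 members, 65.6, 90.5 and 146. The ab1 score equalled 3100 in 66 members and the ab2 score in 8, so these members are tied on that score. Across members Spearman's rho was 0.866 between ab1 and ab2 (3221 members), 0.734 between ab1 and ab3 (798) and 0.752 between ab2 and ab3 (797), and members of a library share its depth and control. The ab1 score barely moved with distance from a TSS (rho -0.02).

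No difference in score between the members and deep gene-body regions was detected. Of the members, 1599 of 3222 (49.6%) had an ab1 score at or above the median of all regions, where the share over all regions was 50% by construction. The difference from deep gene-body regions was -0.667 percentage points (95% interval -2.98 to 1.64, Fisher's exact test, two-sided, adjusted p = 0.835). For ab2 the count was 1622 of 3221 (50.4%, all regions 50%) and the difference -0.490 points (-2.80 to 1.82, adjusted p = 0.845 by the same exact test). For ab3 it was 400 of 798 (50.1%, all regions 50.1%) and -2.73 points (-7.38 to 1.92, exact adjusted p = 0.404).

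Peaks of all 3 antibodies met in 797 of 3222 members (24.7%, all regions 22.2%), ab1 and ab2 alone in 2424, and ab1 and ab3 alone in 1. The share was 24.4% in deep gene-body regions, a difference of 0.356 points (95% interval -1.63 to 2.34, Fisher's exact test, adjusted p = 0.872), and 25.0% in nearer intergenic regions, a difference of -0.218 points (-1.98 to 1.54, exact adjusted p = 0.902). It was 21.9% over all regions outside deserts, 2.82 points lower than in the members (1.26 to 4.39, exact adjusted p = 0.000794). The share went with the ab1 score, from 0.621% in the members below the first quartile of that score to 4.71%, 18.6% and 74.9% in the quartile groups above.

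Members were narrower than other regions. The median width was 766 bp, against 806 bp in deep gene-body regions and 819 bp in nearer intergenic regions, and the range was 307 to 5353 bp. A width at or above the median of all regions was found in 1085 of 3222 members (33.7%, all regions 50.1%). The difference from deep gene-body regions was -8.49 points (-10.7 to -6.26, Fisher's exact test, adjusted p = 4.57e-13), and the difference from nearer intergenic regions was -9.42 points (-11.4 to -7.47, exact adjusted p = 1.04e-19).

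The E-box marked the middle of the members. The paper derived the extended E-box by a motif search in its merged peaks of these same libraries, from which the members also come. Its excess in the centres was thus largely built in, and the tests of centre against flank are no independent support. A match to the extended E-box was present in 2207 of 3222 members within their central 200 bp (68.5%, 66.9 to 70.1, all regions 59.6%) and in 661 windows of the same length that started 1 kb beyond the lower-coordinate end of the region (20.5%, 19.2 to 21.9). The centre exceeded the flank 3.34-fold, with 1755 members that had the motif in the centre only and 209 in the flank only (two-sided p = 1e-300 in McNemar's exact test, where smaller values were set to this number). On the higher-coordinate side 21.4% of flanks held it, a 3.20-fold difference (exact p = 8.24e-288). When each antibody's own peaks at desert positions were taken, without merging, 69.2% of 4999 ab1 peaks, 67.3% of 3461 ab2 peaks and 74.9% of 813 ab3 peaks held it, against 20.5%, 21.6% and 20.8% of their flanks. The means were 70.5% ± 3.95 in the centre and 21.0% ± 0.544 in the flank (SD, n = 3 antibodies).

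Around the midpoint, matches counted on each strand per 100 members and 40 bp reached 38.1 and 36.1 in the bins beside the midpoint, fell to 20.7 and 20.4 at 100 bp and to 10.4 and 10.6 at 180 bp on either side, and lay between 5.71 and 7.79 beyond 500 bp. A pair or more of extended E-boxes stood in the central 200 bp of 854 members (26.5%, all regions 22.2%). The number of sites did not go with the score: the median ab1 score was 279 in the 1015 members without the motif, 275 in the 1353 with 1, 263 in the 662 with 2 and 268 in the 192 with 3 or more. By quartile group of the ab1 score the share with the motif was 66.8%, 71.2%, 68.1% and 67.9%, and it was 65.2% (53.1 to 75.5) in the 66 members with an ab1 score of 3100. No CANNTG at all was found in the centres of 303 members (9.40%, all regions 16.3%).

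**Figure D2:**
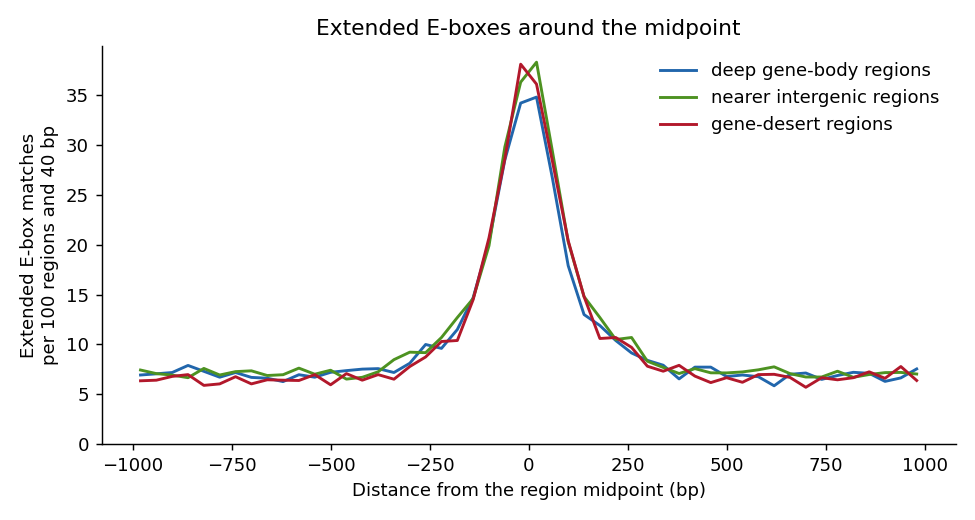
Extended E-box matches per 100 regions in bins of 40 bp are plotted against distance from the region midpoint (bp) for gene-desert, deep gene-body and nearer intergenic regions. In gene-desert regions the line peaks at 38.1 beside the midpoint and returns to between 5.71 and 7.79 beyond 500 bp.

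**Figure D3:**
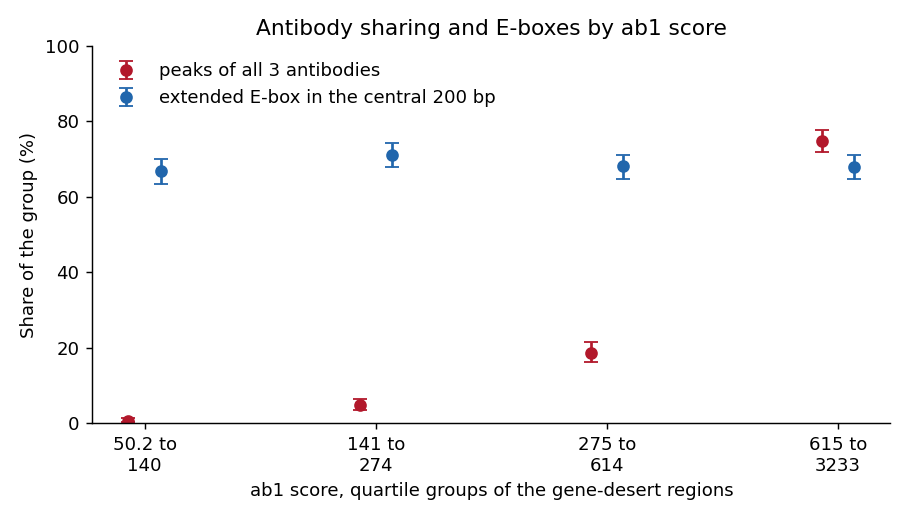
For quartile groups of the gene-desert regions by ab1 score, the points give the share with peaks of all 3 antibodies and the share with an extended E-box in the central 200 bp (%), with Wilson 95% intervals. The antibody share climbs from 0.621% to 74.9%, and the E-box share stays between 66.8% and 71.2%.

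The share of members with the extended E-box stood close to that of other distal regions. It was 65.9% in deep gene-body regions, 2.64 points below the members (95% interval 0.475 to 4.81, Fisher's exact test). The adjusted p of this difference was 0.0388 over 27 exact comparisons of scores, widths, neighbours and motif calls, and 0.0803 over the 26 motifs below. The difference from nearer intergenic regions was 1.42 points (-0.479 to 3.32, exact adjusted p = 0.252). Against all regions outside deserts, where promoters are included, it was 9.84 points (8.14 to 11.5, exact adjusted p = 7.58e-27). The first difference did not pass the threshold under 6 of 14 alternatives, including the removal of ab1 (3.57 points, exact p = 0.117) or ab2 (2.13 points, exact p = 0.362). The difference from nearer intergenic regions passed at an unadjusted exact p under 0.05 in 5 of 14 alternatives. It was 3.86 points past 100 kb (exact p = 0.00562) and 2.87 points with protein-coding genes only (exact p = 0.000655). By GC content of the centre, the members' share was 65.2% under 42% GC, below the 66.9% of deep gene-body regions, with overlapping Wilson intervals. It was 71.1% (68.7 to 73.5) against 66.4% (64.1 to 68.6) between 42% and 50%, and 67.7% against 65.0%, with overlapping intervals, from 50% upward.

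Among the 10 forms of CANNTG, the most common in the members had the central pairs GA and GC. CAGATG, also read as CATCTG on the other strand, was found in 50.7% of centres and 14.7% of flanks (3.45-fold, all regions 43.1%). CAGCTG was found in 27.3% and 6.21%, the largest ratio of the 10 at 4.39 (all regions 28.1%). CATATG was found in 18.3% and 6.95% (2.64-fold, all regions 11.7%). McNemar's exact test gave adjusted p-values of 1.19e-195, 1.34e-116 and 5.94e-45 for these forms. They are the cores of the extended E-box, so the limit given above for its tests against flanks holds for them too. CACATG (21.6% against 16.2%, 1.34-fold, all regions 16.8%, exact adjusted p = 1.01e-07) and CAAATG (20.3% against 17.3%, 1.17-fold, all regions 14.6%, exact adjusted p = 0.00616) were more common than CATATG but closer to their flanks. CAATTG (3.32% against 3.60%, exact adjusted p = 0.612) and CACGTG, the site of MYC and USF proteins (2.95% against 2.30%, exact adjusted p = 0.155), did not pass the test.

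Among these forms, CATATG was the one that passed the test against both comparison classes. It was held by 591 of 3222 members, and its share exceeded that of deep gene-body regions (14.5%) by 3.80 points (Fisher's exact test, adjusted p = 0.000353) and that of nearer intergenic regions (13.5%) by 4.80 points (exact adjusted p = 2.38e-09). The site holds 4 bases of A or T, and the members were less rich in GC: the median of the central 200 bp was 46.5% in the members, 48.5% in deep gene-body regions and 49.5% in nearer intergenic regions, and CATATG was also more common in the flanks of the members (6.95%) than in those of the other classes (5.74% and 5.97%). Among centres with a GC content under 42%, the share was 27.0% in members (24.1 to 30.1), 24.8% in deep gene-body (21.7 to 28.1) and 22.4% in nearer intergenic regions (24.9 at the upper bound). Between 42% and 50% it was 20.1%, 17.4% and 18.1%, and from 50% upward 9.02%, 7.45% and 7.78%. Within each of these GC ranges the members had the highest share, and the Wilson intervals of all 3 classes overlapped. Such overlap is no test of a difference, and the part of GC content in the CATATG differences was not tested. Where only regions with all 3 antibodies were used, the difference from deep gene-body regions was 2.90 points (exact p = 0.110), and without ab1 or ab2 it was 2.71 (exact p = 0.130) or 2.82 points (exact p = 0.113). Past 100 kb from a TSS it was 2.36 points (exact p = 0.105).

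Besides E-boxes, the TTGGCA site of the NFI family, transcription factors of cortical progenitors and neurons, was the most frequent motif. It was found in 26.4% of members and 10.6% of flanks (2.49-fold, McNemar's exact test, adjusted p = 1.11e-59, all regions 20.2%). The share was 3.91 points above that of nearer intergenic regions (22.4%, Fisher's exact test, adjusted p = 7.42e-05) and 2.58 points above that of deep gene-body regions (23.8%, exact adjusted p = 0.0790). Among centres with a GC content under 42% the share was 24.9% in members and 24.5% in nearer intergenic regions. It was 28.1% (Wilson 95% interval 25.7 to 30.5) and 24.0% (22.5 to 25.6) between 42% and 50%, and 25.2% (22.7 at the lower bound) and 20.7% (22.0 at the upper bound) from 50% upward, so the intervals did not overlap in the last 2 ranges. Those of deep gene-body regions (24.4%, 25.1% and 22.2%) overlapped those of the members in all 3 ranges. Over all GC contents, the difference from nearer intergenic regions was 2.77 points with all 3 antibodies required (exact p = 0.125) and 2.03 points without ab2 (exact p = 0.259). The POU octamer ATGCAAAT, the site of neural POU factors such as Pou3f2, was found in 2.67% of centres and 1.68% of flanks (exact adjusted p = 0.0185, all regions 1.64%).

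Over all motifs, 14 of the 26 were more frequent in centres than in the lower-coordinate flanks and 0 less frequent (McNemar's exact test, adjusted p under 0.05). The homeobox core TAATTA (9.16% against 8.19%, exact adjusted p = 0.217, all regions 6.21%), the SOX site AACAAAG (4.84% against 5.96%, exact adjusted p = 0.0871, all regions 4.17%) and the AP-1 site TGANTCA (6.18% against 7.20%, exact adjusted p = 0.155, all regions 5.25%) did not pass. Against deep gene-body regions 1 motif, CATATG, passed the exact test, and against nearer intergenic regions 10 did. Among those, the GC box GGGCGG (2.76% against 5.82%, all regions 12.2%) and the CTCF core AGGGGGC (2.02% against 3.39%, all regions 4.14%) were rarer in the members (exact adjusted p = 3.28e-11 and 0.000369), as was CAGCTG (27.3% against 30.1%, exact adjusted p = 0.00833). TAATTA was more frequent than in nearer intergenic regions (exact adjusted p = 0.000513). Within the 3 GC ranges its shares were 15.9%, 8.45% and 4.66% in members and 15.1%, 8.43% and 3.69% in nearer intergenic regions. They were 16.1%, 9.46% and 3.37% in deep gene-body regions, and the Wilson intervals overlapped. The GC content of the centres was also lower in the members, as given above. Its part in the differences for TAATTA, the GC box, the CTCF core and CAGCTG was not tested.

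**Figure D4:**
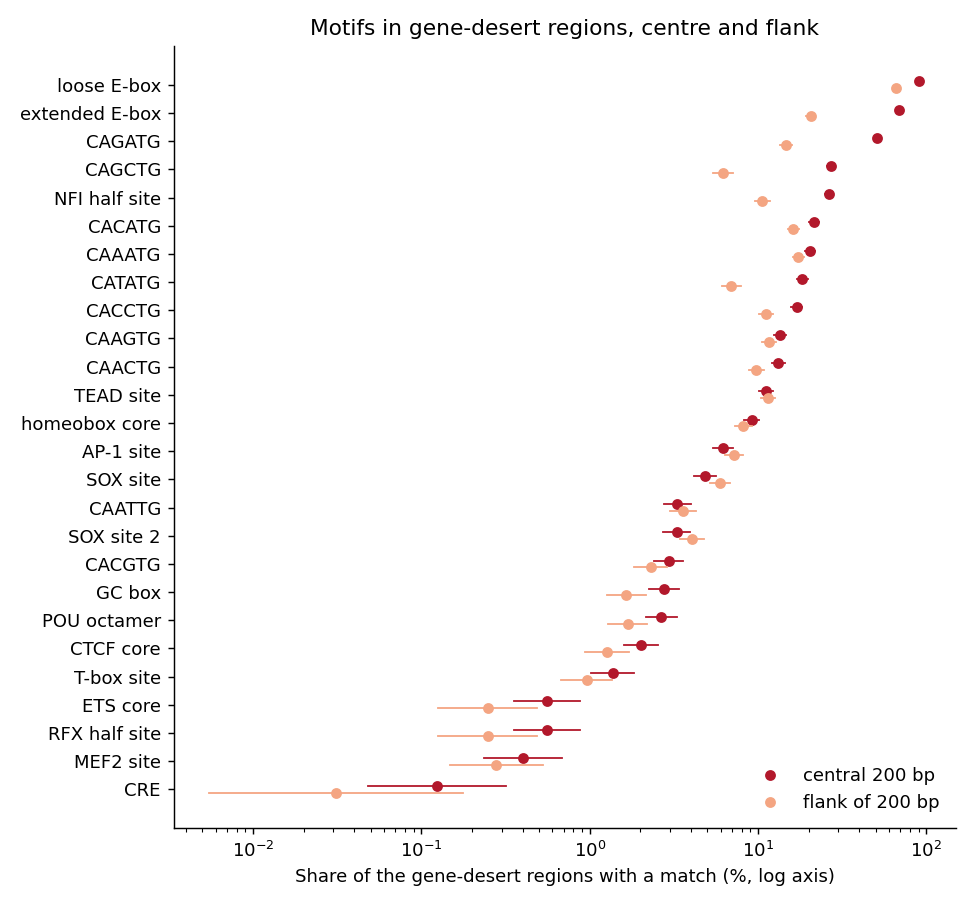
For each of the 26 motifs, the share of the 3222 gene-desert regions with a match (%, log axis) is plotted for the central 200 bp and for the lower-coordinate flank of 200 bp, with Wilson 95% intervals. CAGATG (50.7% against 14.7%), CAGCTG (27.3% against 6.21%), CATATG and the NFI site stand apart from their flanks, while TEAD, homeobox and AP-1 sites do not.

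Members lay alone more often than other distal regions, yet some formed dense groups. Another region stood within 10 kb of 1226 of 3222 members (38.1%, all regions 44.4%). The share was 47.7% in deep gene-body regions, a difference of -9.61 points (-11.9 to -7.33, Fisher's exact test, adjusted p = 9.87e-16), and 45.4% in nearer intergenic regions, a difference of -7.31 points (-9.30 to -5.31, exact adjusted p = 4.28e-12). The median distance to the closest other region was 16917 bp in the members, 10845 bp in deep gene bodies and 12014 bp in nearer intergenic sequence, which follows the order of the densities above. Linked at steps of up to 10 kb, 1173 members (36.4%) formed 498 chains of 2 or more, of which 35 had 4 or more. The longest chain held 9 members over 28.6 kb beside Cdh6, a type II cadherin gene, with 6 that had all 3 antibodies, 7 with an extended E-box and ab1 scores of 106 to 716. The next held 6 members over 23.8 kb beside Mn1, a transcriptional regulator gene, none with ab3.

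The members fell in 1368 of the 4513 gene-free intervals with any eligible base (30.3%). A single member stood in 642 of them, and the 157 intervals with 5 or more held 1082 members (33.6%). Up to 1000 kb, longer intervals were more often occupied but less densely: 20.7% of the intervals under 200 kb had a member, at 9.03 per Mb of eligible sequence, 51.5% of those from 200 to 500 kb at 7.24 per Mb, and 80.3% of those from 500 to 1000 kb at 5.82 per Mb. Of the 7 intervals of 1000 kb or more, 3 had a member (42.9%), at 2.31 per Mb. Of the 134 intervals of 500 kb or more, 29 had no member. An interval is named here by the closest protein-coding gene on either side; noncoding genes can form its ends, and further members can lie between the same coding genes outside it. The largest empty one lay between Cobl and Pom121l12 (chr11:12998384-14072102) and had 1.02 Mb of eligible sequence. The next lay between Zeb2, a transcription factor gene of cortical neurons, and Acvr2a (chr2:46607084-47541983) and had 0.835 Mb, with members on both sides of it between these genes.

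The fullest intervals held 18 members each, both on chromosome 2. The first, 533 kb between the cadherin genes Cdh26 and Cdh4, had ab1 scores from 87.2 to 3100 with a median of 254, and 3 members with all 3 antibodies. One of those, 354 kb from the lower-coordinate end, scored 3100 with ab1, 3100 with ab2 and 1190 with ab3 and had no extended E-box in its centre, while another, at 199 kb, scored 2410, 1205 and 134 and had one. The second, 650 kb between Dok5 and Cbln4, a secreted synaptic organiser gene, had 8 members with all 3 antibodies and a median ab1 score of 429. Next came 14 members each between Gm6569 and Adgrb1 and between Auts2 and Castor2, 13 in the fullest interval between Camk1g and Plxna2, which does not reach either gene, and 12 each between Gm26897 and Cryba4, Sall1 and Tox3, and Pard3 and Nrp1. The intervals between Disc1 and Sipa1l2 and between Fam19a5 and Zdhhc25 held 11 each. Of these 10 intervals the one between Gm26897 and Cryba4 was the densest, at 107 members per Mb of eligible sequence, and that between Pard3 and Nrp1 the sparsest, at 20.7, against 7.49 over all deserts.

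**Figure D5:**
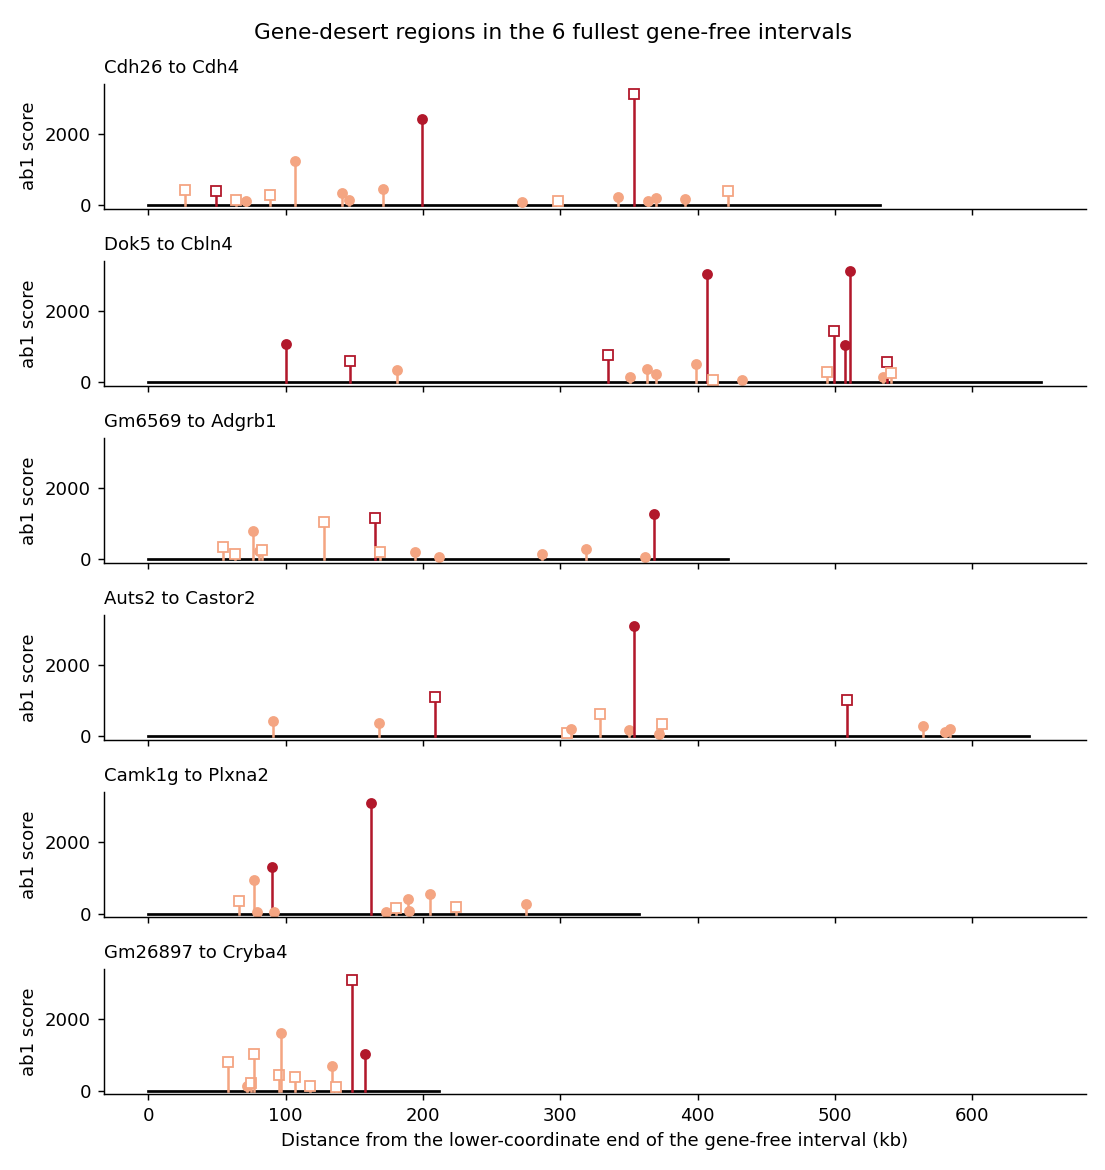
Each panel is 1 of the 6 fullest gene-free intervals, named by the closest protein-coding gene on either side, which need not be its end, with its members at their distance (kb) from the lower-coordinate end and the height giving the ab1 score. Dark red marks members with all 3 antibodies and light red those with 2, and filled circles have an extended E-box in the centre while open squares do not. Most members score under 1000, and 5 of the 6 intervals have a member with a score of 3100.

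By closest protein-coding TSS, the members fell to 1124 genes, or 35.7% of the 3146 with any desert sequence closest to them, and 196 genes had 5 or more. The closest TSS of any type was that of a protein-coding gene for 578 members (17.9%), and the median distance to a protein-coding TSS was 236786 bp. Tox3, a gene for an HMG-box protein of neurons, had the most members, 22, at 66.0 to 604 kb and at 30.8 per Mb of its desert sequence. Their ab1 scores ran from 55.2 to 3100 with a median of 271, and 6 had all 3 antibodies. Cdh26 and Cbln4 had 18 each, Cdh8 17, Zdhhc25 16, and Tmem182, Cdh6 and Tenm2 15 each. Camk1g, Sox11 and Pik3c3 had 14, and Gm26897, Castor2, Plxna2 and Slc10a2 had 13. Gm26897 stood out in density, with 13 members in 93.0 kb of desert, or 140 per Mb, and 4 of the 13 had an extended E-box.

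Genes of a list of transcription factors and other regulators of cortical projection neurons and their progenitors had a denser set of members around them than all coding genes. The list was chosen with earlier results of these data known, and the part of that choice in the density was not tested. Of the 62 genes of this list 43 had desert sequence, 30 had members and 32 had none. Those without members, here and in the lists below, include genes without desert sequence. Of the listed genes with desert sequence 69.8% had members, against 35.7% of all such genes. Their 143 members lay in 11.0 Mb at 13.0 per Mb, against 7.49 per Mb over all genes, and the median over the 28 genes with at least 100 kb of desert was 14.2 per Mb, against 4.27 over 1091 such genes. Sox11, a gene for a SoxC factor of newborn neurons, had 14 members at 65.9 to 531 kb, with a median ab1 score of 601 and 7 with all 3 antibodies. Auts2, a gene linked to neurodevelopment, had 12 members at 176 to 768 kb, with a median of 369. Tle4, a corepressor gene of deep-layer corticothalamic neurons, had 9 at 162 to 617 kb, with a median of 534. An extended E-box was found in 69.2% of the list's members and all 3 antibodies in 30.8%, against 68.5% and 24.7% of all members.

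Axon guidance genes had a pooled density closer to that of all genes, with a higher median per gene. Of 54 genes, 32 had desert sequence, 20 had members and 34 had none, and their 102 members lay at 9.25 per Mb, against 7.49 over all genes. The median over 19 genes was 8.52, against 4.27 over all genes, and 62.5% of the listed genes with desert sequence had members, against 35.7% of all such genes. In all lists this share was not adjusted for the length of desert per gene. The 32 genes here had 11.0 Mb of desert, and all 3146 such genes had 430 Mb. Plxna2, a semaphorin coreceptor gene, had 13 members at 104 to 600 kb, of which 5 had all 3 antibodies and the highest ab1 and ab2 scores were both 3100. Slit2, which encodes a repulsive ligand of Robo receptors, had 11, with ab1 scores of 80.2 to 1192, and Epha4, which encodes an ephrin receptor, had 11, none with ab3.

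Cell adhesion genes had the most members of the 5 lists, in the most desert sequence. Their pooled density was below that of all genes and their median per gene was close to it. Of 70 genes, 59 had desert sequence, 42 had members and 28 had none, and 214 members lay in 39.0 Mb at 5.49 per Mb, against 7.49 over all genes. The median over 47 genes was 4.26, against 4.27 over all genes, and 71.2% of the listed genes with desert sequence had members, against 35.7% of all such genes. These genes had 9.07% of the desert sequence and 6.64% of the members. The type II cadherin genes Cdh8 and Cdh6 and the teneurin gene Tenm2 led with 17, 15 and 15 members, at 10.0, 14.5 and 12.7 per Mb. The extended E-box was found in 78.5% of the 214 members and all 3 antibodies in 20.6%, where all members had 68.5% and 24.7%.

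Genes of subpallial and interneuron identity had little desert sequence, with a density of members above that of all genes. Their pooled density was the highest of the 5 lists, while their median per gene was below that of the cortical list (14.2). Of 30 genes of subpallial and interneuron identity, 11 had desert sequence, 7 had members and 23 had none, and 24 members lay in 1.55 Mb at 15.5 per Mb, against 7.49 over all genes. The median over 4 genes was 12.5, against 4.27, and the share of genes with desert sequence that had members was 63.6%, against 35.7%. Maf, a transcription factor gene of interneurons, had 7, Dlx2, a homeobox gene of the ganglionic eminences, had 4 within 49.4 kb of desert, and Isl1, a LIM-homeobox gene, had 4. The Dlx2 members had ab1 scores of 77.9 to 1152, and no ab3 peak. Of 48 transcription factor genes of other tissues, 21 had desert sequence, 6 had members and 42 had none, and their 22 members lay at 6.17 per Mb, with a median over 10 genes of 0.863, and 28.6% of the listed genes with desert sequence had members. Irx1 and Sox9 had 6 each and Tbx3 had 5. An extended E-box was found in 54.2% of the 24 members of the subpallial list and all 3 antibodies in 20.8%. These shares were 81.8% and 13.6% for the 22 members of the other-tissue list. They were 69.6% and 24.5% for the axon guidance list, against 68.5% and 24.7% of all members. The lists are counts beside the background of all genes, with no test of a list. All 5 lists were chosen with earlier results of these data known.

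The annotation used decides what counts as a desert. By RefSeq genes of the same assembly, 367 members (11.4%) lay inside a gene, and 2055 (63.8%) were still outside every gene and more than 50 kb from a gene start.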

How the data were processed

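ChIP-Seq was performed by the authors on E14.5 BALB/c cortex with 3 NEUROD2 antibodies, 1 library each, and the p-values below do not measure spread between animals. Per the study's methods, single-end reads were mapped to mm10 with Bowtie, duplicate and multiply mapped reads were removed, and peaks were called with MACS for each library against a GFP control. The deposited peak lists give a score per peak, 10 times the negative log10 of the MACS p-value, with a minimum of 50. Read depths were not used here, although the scores and the number of peaks called depend on them, and weak sites of the ab3 list in particular may be missed.

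From these lists, peaks sharing at least 1 bp were merged and placed on the longest transcript of each gene of GENCODE M21 (55413 genes). Sequence was read from GRCm38.p6. Shares carry Wilson 95% intervals, differences between classes were tested with Fisher's exact test and centres against flanks with McNemar's exact test, two-sided, with Benjamini-Hochberg adjustment at 0.05 (Python 3.11, scipy). Regions were treated as independent, so tests cover counting error only, and neighbouring regions share a locus. The tests and the motif search were checked on simulated data.

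The members, gene lists and motifs were chosen with earlier results of these data known. Named genes were the 15 protein-coding genes with most members closest to their TSS, the closest coding genes on either side of the 10 fullest intervals, the genes beside the 5 members with the highest ab3 scores and the 5 farthest members, and the 3 genes with most members in each list. The printed sequences followed the order of ab3 score, except the last, chosen for its distance from any TSS. The second longest chain, the empty intervals and the density by class were added after values were seen. Alternatives changed the peak score, the overlap, the antibodies, the midpoint, the annotation, the distance, the motif, the window and the number of regions per interval.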

Additional observations from a re-analysis of the deposited data

Results flagged for a closer look

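At gene-desert positions, some regions had peaks of a single antibody and were no members, although their peaks are among each antibody's own peaks compared with their flanks above. There were 1726 with ab1 alone, 208 with ab2 alone and 6 with ab3 alone, a signal that the members leave out, and no file of control peaks was used to set a level for them. Their median scores were 72.5, 61.5 and 55.5. An extended E-box was present near the midpoint, within the central 200 bp, of 69.6% of the ab1 regions (Wilson 95% interval 67.4 to 71.8) and 65.9% of the ab2 regions (59.2 to 72.0), against 20.9% and 23.1% of their flanks, and of 1 of the 6 ab3 regions.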

How the results depend on the processing

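The E-box excess of the centre over the flank kept its direction and passed the test under all 14 alternatives, from 1.38-fold for CANNTG to 4.47-fold in the central 100 bp. The motif came from peaks of these libraries, so this is no independent support. The lower share of members with a neighbour passed under all 12. The number of members was 2043 with a peak score of at least 100, 797 with all 3 antibodies required, 798 without ab1, 801 without ab2, 8870 with protein-coding genes only and 1265 past 100 kb. The density ratio was 0.646 with all 3 antibodies, 0.642 without ab1, 0.643 without ab2, 0.538 with protein-coding genes only, 0.532 past 100 kb and 0.432 with RefSeq genes, an alternative added after the data were seen, as were those for CATATG and TTGGCA. Settings are read by their unadjusted exact p against 0.05. The E-box difference from deep gene-body regions lost the threshold with a score of at least 100 (2.12 points), without ab1 (3.57), without ab2 (2.13), with all annotated transcripts (0.960), past 100 kb (2.62) and for CANNTG (1.36). That from nearer intergenic regions passed it with protein-coding genes only (2.87), past 100 kb (3.86), with 1 region per interval (3.00), for CANNTG (1.30) and in the central 500 bp (1.42), although for CANNTG the adjusted p of Fisher's exact test was 0.0841. With 1 region per interval or transcript, the difference in all-3-antibody share was -7.77 points from deep gene-body regions and 6.20 from nearer intergenic regions, and that in ab1 score -7.53. The region kept was the one with the highest summed score, which includes all 3 antibodies, so this choice used the outcome and no test is read from these values. The causes of the other changes were not tested. Without ab1 the ab1 comparison could not be made. The lists hold no depth, and a site absent from the ab3 list may have been too weak to be called.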
